A study of Mus musculus with 3 samples.

Results

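The 10 genes described here encode the mouse G1 cyclins Ccnd1, Ccnd2, Ccnd3 and Ccne1 and the Cdk inhibitors Cdkn1a, Cdkn1b, Cdkn2a, Cdkn2b, Cdkn2c and Cdkn2d. They were chosen by name for their role in the G1 phase of the cell cycle, among 22350 protein-coding genes annotated on the chromosomes covered, and the rule used no measured value. The choice was made with earlier results of these data known. D-type cyclins bind Cdk4 and Cdk6 and cyclin E binds Cdk2, and these kinases phosphorylate the retinoblastoma protein so that E2F factors can switch on the genes of S phase. The INK4 inhibitors (Cdkn2a to Cdkn2d) bind Cdk4 and Cdk6, whereas the Cip/Kip inhibitors p21 (Cdkn1a) and p27 (Cdkn1b) bind cyclin-Cdk complexes more broadly. Mouse embryonic stem cells (ESCs) have a short G1 phase and a fast cycle, and the Cdkn2a and Cdkn2b locus is a well-known target of Polycomb repression.

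The data came from ChIP-Seq of ESCs with 3 libraries, 1 per group, and addressed where a variant of the histone H2A.Z lies relative to the wild-type protein. In the H2A.Z WT group, a lentiviral, doxycycline-inducible H2A.Z fused to yellow fluorescent protein (YFP) was expressed in derivatives of KH2 ESCs while a hairpin reduced the endogenous protein, and chromatin was precipitated with an anti-GFP antibody. The H2A.Z AP3 group was made in the same way with an H2A.Z that carries the acidic patch substitutions G92N, D97N and S98K, which give it the residues of H2A. The H3K27me3 group was precipitated for this mark, methylation of histone H3 lysine 27 in its trimethylated form, as placed by Polycomb repressive complex PRC2, and its genotype label is WT. No doxycycline dose is listed for that group. Both transgenes were driven by a CMV promoter under the drug-inducible activator rtTA, with 1 µg/ml doxycycline, so the protein mapped is tagged and its amount is set by the transgene. The labels give the strain V6.5 for all 3 samples, although the treatment text names KH2 derivatives. The cells were kept on embryonic fibroblast feeders and plated without them for the last passage. Each library is given as enriched regions called at 1e-9, used for all values unless stated, and as a further list at 1e-12, and neither holds heights, read numbers or p-values. With 1 library per group no difference between groups could be tested, and the depth is unknown. A region that is missing from a list did not pass the calling rule and is not shown to be absent.

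Across the genome the H2A.Z WT list held 78359 regions over 28.3 Mb, the H2A.Z AP3 list 14599 regions over 3.5 Mb and the H3K27me3 list 16970 regions over 9.32 Mb. The H2A.Z AP3 list was uneven between chromosomes. It reached the promoters of 43.6% of the genes on chromosome 6 and 50.3% on chromosome 8, against 17.5% to 24.9% on the other 17 autosomes. Cdkn1b and Ccnd2 lie on chromosome 6 and no member lies on chromosome 8, so several of the pooled values are also given without these 2 genes. Among markers of pluripotent cells, 2 of 10 promoters had an H2A.Z WT region, 0 an H2A.Z AP3 region and 1 (Esrrb) an H3K27me3 region. Among markers of fibroblasts, the cell type of the feeders, these counts were 6, 5 and 6 of 7. Over all protein-coding genes the shares were 61.7%, 23.2% and 18.2%. The H2A.Z AP3 lengths at the fibroblast markers were short, from 25 bp at Thy1 to 200 bp at Col1a2, which lies on chromosome 6.

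A promoter was taken as all sequence within 2 kb of any annotated transcript start of the gene, which gave windows of 4001 to 10795 bp per member. H2A.Z WT regions lay at the promoters of 8 of the 10 members, against 61.7% of all protein-coding genes, and the exceptions were Cdkn1a and Cdkn2d. H2A.Z AP3 regions lay at 6 of the 10, against 23.2% of all genes, namely at Cdkn1b, Cdkn2a, Cdkn2c, Ccnd1, Ccnd2 and Ccnd3. H3K27me3 regions lay at 4 of the 10, against 18.2% of all genes, namely at Cdkn1a, Cdkn2a, Cdkn2c and Ccnd2. Regions of all 3 libraries were found at Cdkn2a, Cdkn2c and Ccnd2, so 3 of 10 members against 7.9% of all genes. The same 3 were the members with regions of both H2A.Z WT and H3K27me3, like 17.3% of all genes. Cdkn1a was the 1 member with H3K27me3 and no H2A.Z WT, like 0.877% of all genes, and Cdkn2d was the 1 member with no region of any library, like 36.3% of all genes. The libraries come from separate cell samples, so regions that coincide are not shown to lie on the same chromatin.

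**Figure D1:**
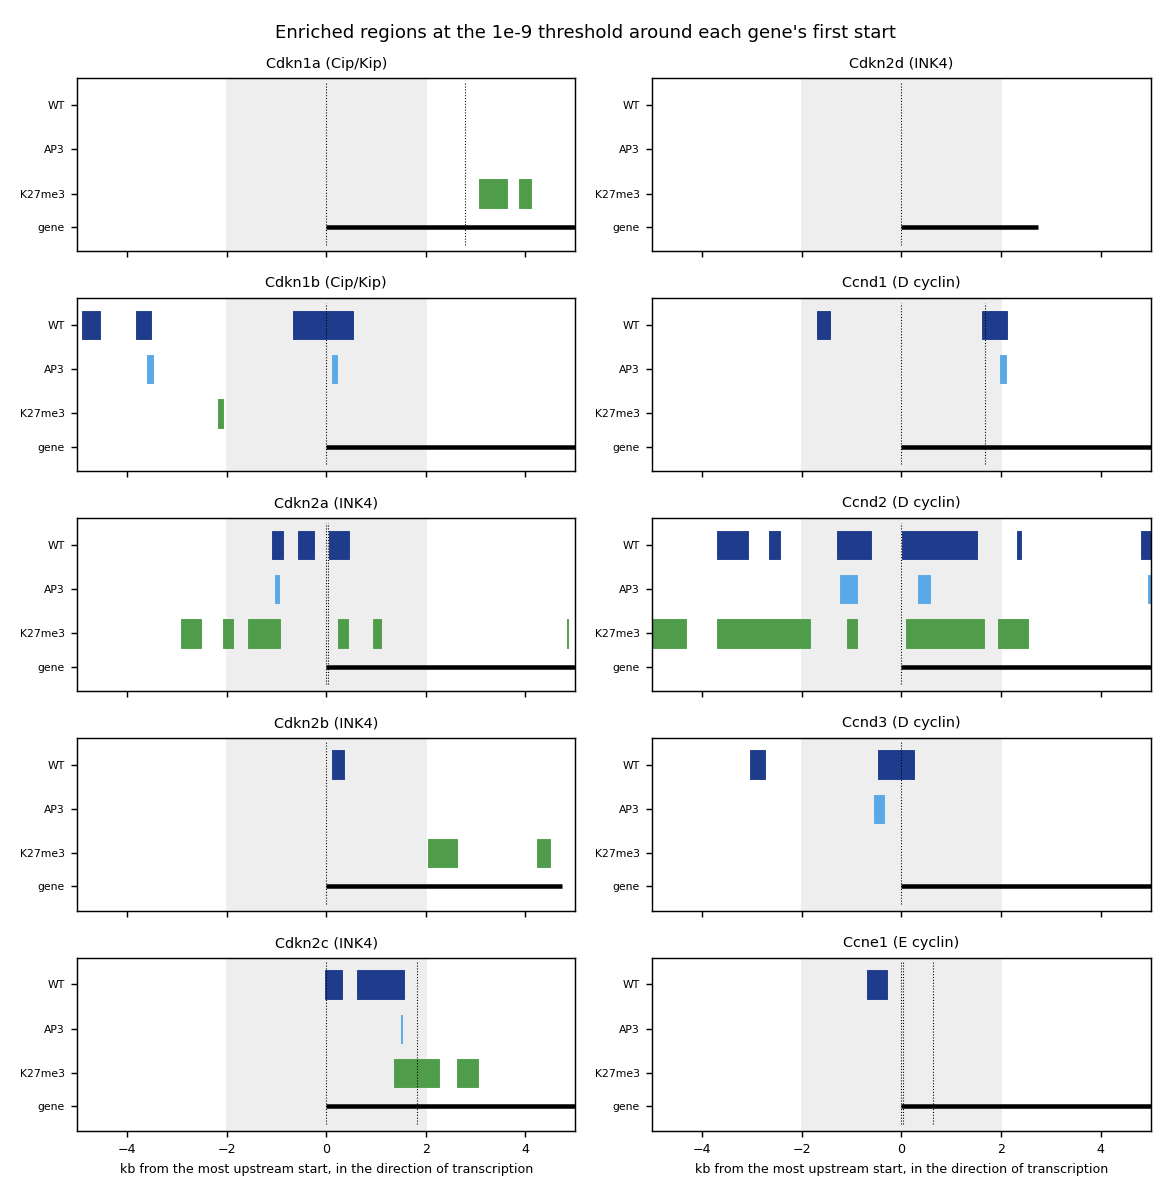
Enriched regions (1e-9 lists) within 5 kb of the most upstream start of each of the 10 genes, with the distance from that start in kb on the x axis and rows for the regions of H2A.Z WT, of H2A.Z AP3 and of H3K27me3 and for the gene body (black bar). Dotted lines mark annotated starts and the shaded band is 2 kb on each side of the most upstream start, and the panels show H3K27me3 at Cdkn2a, Cdkn2c and Ccnd2 inside the band, at Cdkn1a beyond its second start, and no region at Cdkn2d.

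With the 1e-12 lists, H2A.Z WT remained at the promoters of 8 members (60% of all genes) and H3K27me3 at 4 (15.7%), but H2A.Z AP3 was at 1 member, Ccnd2, beside 18.8% of all genes in that list. Hence 5 of the 6 H2A.Z AP3 promoters rest on regions that pass the 1e-9 threshold alone. The other, Ccnd2, lies on chromosome 6, where the H2A.Z AP3 list is dense. Without the members there the H2A.Z AP3 promoter coverage at 1e-12 was 0 bp. In length, the members' H2A.Z AP3 promoter coverage fell from 1100 bp to 375 bp, while H2A.Z WT went from 7775 to 6675 bp and H3K27me3 from 5608 to 4541 bp. The median member had 750 bp of promoter covered by H2A.Z WT, against 300 bp over all genes. For H2A.Z AP3 the median was 50 bp against 0 bp, and for H3K27me3 it was 0 bp in both. Without the 2 genes on chromosome 6 the median was 562.5 bp for H2A.Z WT, 12.5 bp for H2A.Z AP3 and 0 bp for H3K27me3, and the sums were 4400, 425 and 3607 bp. H2A.Z AP3 then lay at 4 of 8 members, beside 20.5% of all genes off chromosomes 6 and 8.

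**Figure D2:**
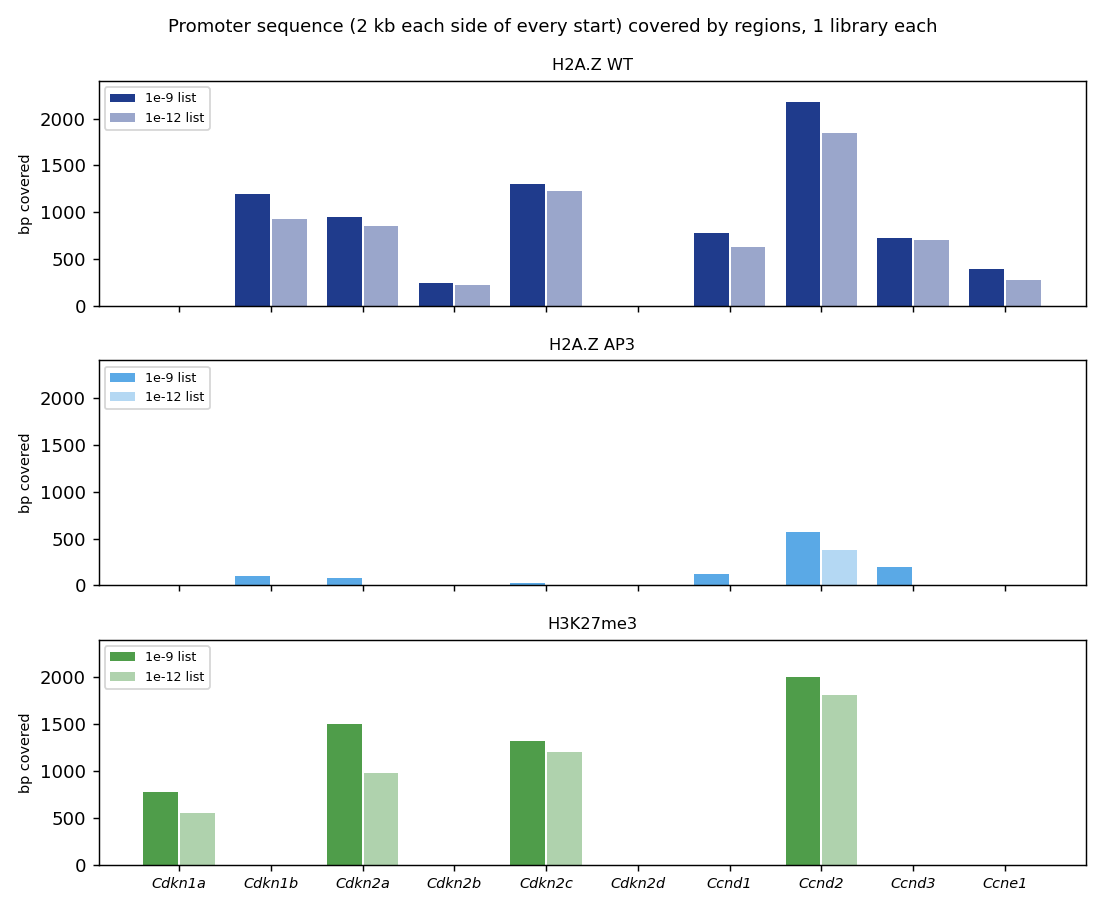
Base pairs of promoter covered (y axis) for each gene (x axis) in the library of H2A.Z WT, of H2A.Z AP3 or of H3K27me3, with the 1e-9 list in the full colour and the 1e-12 list in the pale colour, 1 library each and no error bars. Ccnd2 has the tallest bar in all 3 panels (2175, 575 and 2001 bp), and in the pale H2A.Z AP3 bars it is the only gene above 0.

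Cdkn1a (chr17:29227924-29237667, plus strand, all coordinates in mm9) encodes p21, an inhibitor induced by p53. Its H2A.Z WT and H2A.Z AP3 coverage was 0 bp at the promoter and in the gene with 10 kb of flank, and the nearest H2A.Z WT region lay 15774 bp from any of its starts. Its H3K27me3 coverage was 775 bp, in regions of 550 and 225 bp, and 550 bp remained at 1e-12. Both regions lie in an intron 284 to 1308 bp after the second annotated start, which is 2793 bp downstream of the upstream start. No H3K27me3 region lay within 2 kb of the upstream start itself, so the call is lost if the most upstream start alone is used, a rule that leaves H3K27me3 at 3 members and at 16.9% of all genes. These starts differ in base composition. The observed over expected CpG ratio within 500 bp was 0.126 at the upstream start, higher than 10.8% of genes, and 0.63 at the second start, higher than 57.1%. The 150 bases before each start are shown because the H3K27me3 regions follow the second of them. Capitals mark GGGCGG, the GC box bound by Sp1-type factors, or its complement CCGCCC, and CCAAT on either strand.
Cdkn1a, upstream start, chr17:29227774-29227923, plus strand: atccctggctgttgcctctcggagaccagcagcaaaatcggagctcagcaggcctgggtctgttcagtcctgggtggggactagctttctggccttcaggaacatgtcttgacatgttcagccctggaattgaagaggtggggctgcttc
Cdkn1a, second start, chr17:29230567-29230716, plus strand: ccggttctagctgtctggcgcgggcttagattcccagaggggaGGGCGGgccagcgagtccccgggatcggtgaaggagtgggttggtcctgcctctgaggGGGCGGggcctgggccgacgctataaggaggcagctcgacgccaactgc

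Cdkn1b (chr6:134870419-134875531, plus strand) encodes p27, which holds Cdk2 inactive in resting cells. H2A.Z WT covered 1200 bp of its promoter in a single region from -668 to +531, where positions are counted in bp from the most upstream start in the direction of transcription. That length was exceeded by 12.4% of all genes. H2A.Z AP3 covered 100 bp, from +107 to +206 in the 5′ untranslated region and wholly inside the H2A.Z WT region, and 0 bp at 1e-12. H3K27me3 covered 0 bp, with a region of 100 bp ending 2069 bp before the start, just outside the window. In the gene and its 10 kb flanks H2A.Z WT made up 5 regions and 3225 bp, H2A.Z AP3 3 regions and 500 bp. Of those 500 bp, 85% lay within H2A.Z WT, so the H2A.Z AP3 regions sat mostly at the edges or inside of longer H2A.Z WT regions, upstream, at the start and beyond the 3′ end.

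Cdkn2a (chr4:88920377-88940557, minus strand) encodes 2 unrelated inhibitors from separate first exons. The upstream starts, 34 bp apart, give p19Arf, which stabilises p53, and the start 12461 bp further downstream gives p16Ink4a, an inhibitor of Cdk4 and Cdk6. The libraries differed between these starts. Within 2 kb of the p19Arf start, H2A.Z WT covered 550 bp before and 400 bp after it, H2A.Z AP3 75 bp before it, and H3K27me3 782 bp before and 375 bp after it. Within 2 kb of the p16Ink4a start, H2A.Z WT and H2A.Z AP3 both covered 0 bp and H3K27me3 covered 225 bp before and 125 bp after. The nearest H2A.Z WT region to the p16Ink4a start lay 5121 bp away, whereas the nearest to the p19Arf start lay 57 bp away. Around the p19Arf start, H2A.Z WT and H3K27me3 shared 375 bp, which is 39.5% of the H2A.Z WT and 24.9% of the H3K27me3 promoter bases of the gene. The longest H3K27me3 region there lay from -1568 to -919, further out than most of the H2A.Z WT bases, and the regions after the start were of 200 and 175 bp.

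The p19Arf start had the highest observed over expected CpG ratio of the members, 0.981, higher than 97.3% of genes, and 67% GC. At the p16Ink4a start the ratio was 0.537, close to the median of 0.549 over all genes. The sequences before both starts are printed to show that contrast, with the same motifs in capitals, together with the 75 bp from -1018 to -944 that all 3 libraries cover, in which capitals mark CG dinucleotides (4 of them). In the window from 250 bp before to 50 bp after the start, GGGCGG occurred 4 times at p19Arf, 2 of them overlapping, and 1 time at p16Ink4a, and CCAAT 0 and 1 times.
Cdkn2a, p19Arf start, chr4:88940558-88940707, minus strand: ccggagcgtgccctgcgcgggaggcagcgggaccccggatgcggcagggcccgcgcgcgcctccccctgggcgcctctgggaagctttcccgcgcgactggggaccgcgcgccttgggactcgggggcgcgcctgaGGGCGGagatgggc
Cdkn2a, p16Ink4a start, chr4:88928097-88928246, minus strand: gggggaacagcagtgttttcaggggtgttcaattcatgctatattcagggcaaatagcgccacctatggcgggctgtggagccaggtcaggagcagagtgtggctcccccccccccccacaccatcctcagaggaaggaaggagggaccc
Cdkn2a, covered in all 3 libraries, chr4:88941501-88941575, minus strand: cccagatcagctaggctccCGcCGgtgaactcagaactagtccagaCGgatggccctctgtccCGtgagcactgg

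Cdkn2a also had the most H3K27me3 regions of any member, 16 within the gene and its flanks, which covered 6550 bp or 16.3% of that span. The longest ran for 1350 bp from +20332 to +21681 just beyond the 3′ end, and a region of 1325 bp from +17382 to +18706 contained an H2A.Z WT region of 525 bp over a coding exon. The start of the non-coding gene Gm12606 lies in this stretch, with up to 2207 bp of H3K27me3, 125 bp of H2A.Z WT and 0 bp of H2A.Z AP3 within 2 kb. H2A.Z AP3 was represented in the whole span by the 75 bp before p19Arf alone, which was not kept at 1e-12. The 1e-12 list held 50 bp of H2A.Z AP3 elsewhere, at +21207, outside the 1e-9 list.

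Cdkn2b (chr4:88952198-88956941, minus strand) encodes p15Ink4b, an inhibitor induced by TGF-beta, and lies upstream of Cdkn2a on the same strand. Its promoter held 250 bp of H2A.Z WT, from +116 to +365 over a coding exon, of which 225 bp remained at 1e-12, and 0 bp of H2A.Z AP3 and H3K27me3. An H3K27me3 region of 575 bp began at +2041, outside the 2 kb window by 41 bp, and a further 250 bp lay in the 3′ untranslated region. A promoter window of 5 kb therefore added Cdkn2b, and likewise Cdkn1b, to the H3K27me3 genes, which made 6 members beside 19.8% of all genes. With 10 kb of flank the gene had 1475 bp of H3K27me3, but 2 of its 5 regions, of 200 and 400 bp, are shared with the upstream flank of Cdkn2a, so these 2 members do not count as separate there.

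**Figure D3:**
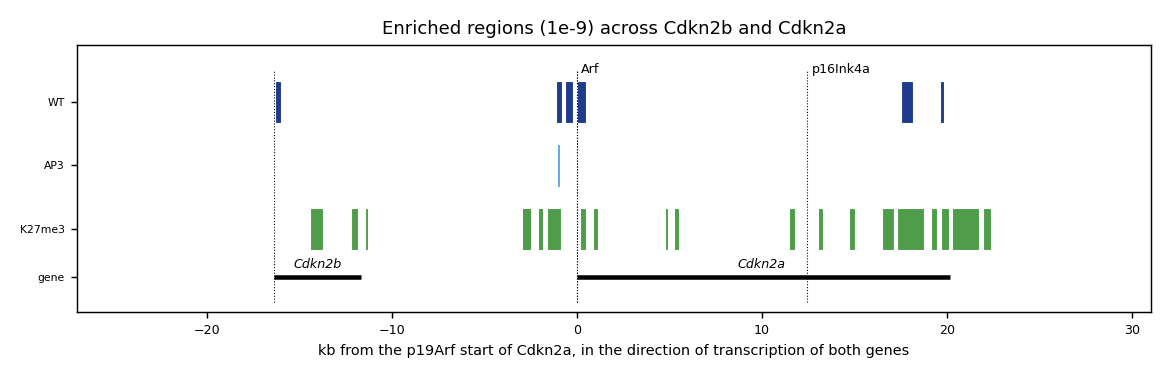
Enriched regions (1e-9 lists) over Cdkn2b and Cdkn2a, drawn by distance in kb from the p19Arf start, with the transcription of both genes from left to right and dotted lines at annotated starts. H3K27me3 regions spread over the locus and cluster at the 3′ end of Cdkn2a, H2A.Z WT regions sit at the Cdkn2b and p19Arf starts and the 3′ end of Cdkn2a, and none lies within 5 kb of the p16Ink4a start (nearest 5121 bp).

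Cdkn2c (chr4:109333481-109339794, minus strand) encodes p18Ink4c. H2A.Z WT covered 1300 bp of its promoter, a length exceeded by 10.6% of all genes, and H3K27me3 covered 1325 bp, exceeded by 7.25%. They occupied largely different sequence: H2A.Z WT regions ran from -31 to +318 across the upstream start and from +619 to +1568, and the H3K27me3 region of 900 bp ran from +1369 to +2268 across the second start at +1817. The overlap was 200 bp, or 15.4% of the H2A.Z WT and 15.1% of the H3K27me3 bases. H2A.Z AP3 was present as a single 25-bp bin from +1494 to +1518, inside that overlap, and was not kept at 1e-12. Further downstream, from +9369 and around the start of the lincRNA 9630013D21Rik, a further 625 bp of H2A.Z WT and a region of 1350 bp of H3K27me3 overlapped by 500 bp. With flanks, Cdkn2c had 3800 bp of H3K27me3, 14.4% of its span. In its upstream flank an H2A.Z WT region of 150 bp, from -9981 to -9832, lay within 2 kb of starts of the neighbouring gene Faf1.

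Cdkn2d (chr9:21092907-21095653, minus strand) encodes p19Ink4d. It had 0 bp in all 3 libraries, at both thresholds and with 10 kb of flank, and the nearest regions lay 20273 bp (H2A.Z WT), 22348 bp (H2A.Z AP3) and 41853 bp (H3K27me3) from its start. The start of the neighbouring gene Kri1 in its flank also had none. Its sequence was not poor in CpG, with an observed over expected ratio of 0.658, higher than 60.3% of genes, and GGGCGG occurred 5 times and CCAAT 1 time in the window from 250 bp before to 50 bp after the start. It is printed as the member promoter without any region.
Cdkn2d, chr9:21095654-21095803, minus strand: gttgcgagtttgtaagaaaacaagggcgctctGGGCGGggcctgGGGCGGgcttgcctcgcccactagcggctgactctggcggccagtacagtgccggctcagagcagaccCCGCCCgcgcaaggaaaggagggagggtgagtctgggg

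Among the D cyclins, Ccnd1 (chr7:152115836-152125774, minus strand) had 775 bp of H2A.Z WT at its promoter and 0 bp of H3K27me3, whose nearest region lay 40102 bp from any of its starts. Its H2A.Z WT regions lay on either side of the coding transcript's start at a distance, from -1701 to -1427 and from +1624 to +2123. The latter begins 48 bp before a second annotated start, of a transcript with a retained intron. H2A.Z AP3 covered 125 bp, from +1974 to +2098, inside the downstream H2A.Z WT region, and 0 bp at 1e-12. When the starts of coding transcripts alone were used, 27 bp of H2A.Z AP3 were left in the window, since that region lies 302 bp from the start of the retained-intron transcript and nearly 2 kb from the coding start.

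Ccnd2 (chr6:127075797-127101066, minus strand) had the most heavily covered promoter of the members in every library. H2A.Z WT covered 2175 bp of its promoter, H2A.Z AP3 575 bp and H3K27me3 2001 bp, lengths exceeded by 3.02%, 3.38% and 4.45% of all genes. At 1e-12 these were 1850, 375 and 1816 bp. The H2A.Z WT regions ran from -1284 to -610 and from +16 to +1515, and left the sequence just before the start uncovered. H2A.Z AP3 lay in both, from -1234 to -885 and from +341 to +565, and so 100% of its promoter bases were also H2A.Z WT bases, while 26.4% of the H2A.Z WT bases were also H2A.Z AP3 bases. H3K27me3 shared 1625 bp with H2A.Z WT, which is 74.7% of the H2A.Z WT and 81.2% of the H3K27me3 promoter bases, the highest overlap of any member. The lincRNA 9330179D12Rik starts inside this stretch on the opposite strand, at +1422 and +1659, and regions without strand cannot be divided between it and Ccnd2. Upstream of the gene H3K27me3 extended in a region of 1875 bp from -3709 to -1835, and smaller regions reached -7459. With flanks, Ccnd2 had 12 H2A.Z WT regions, 2 of them at the promoter, and 4 H2A.Z AP3 regions, 2 of them at the promoter. The others included intronic regions of both.

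All 3 libraries covered 425 bp of the Ccnd2 promoter in common, more than at any other member. The 200 bp upstream of the start that form part of it are printed because the 3 kinds of region coincide there, and because the H3K27me3 region has exactly these ends. Capitals mark the 8 CG dinucleotides.
Ccnd2, covered in all 3 libraries, chr6:127101951-127102150, minus strand: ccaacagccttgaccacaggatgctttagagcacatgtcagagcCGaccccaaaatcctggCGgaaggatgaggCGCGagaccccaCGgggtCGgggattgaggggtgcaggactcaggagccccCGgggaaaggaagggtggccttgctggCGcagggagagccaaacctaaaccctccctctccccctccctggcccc

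Ccnd3 (chr17:47642000-47736632, plus strand), like Ccnd2, had H2A.Z WT and H2A.Z AP3 regions in its introns. A smaller part of its H2A.Z WT and H2A.Z AP3 length than at Ccnd2 lay at the promoter. Its promoter held 725 bp of H2A.Z WT, from -474 to +250 across the upstream start, and 200 bp of H2A.Z AP3, from -549 to -350, which was the 1 member promoter where H2A.Z AP3 reached beyond H2A.Z WT (62.5% of its bases were H2A.Z WT bases). H3K27me3 was 0 bp in the whole gene and its flanks, and the second start, 88416 bp downstream, had no region. Upstream, an H2A.Z WT region of 300 bp from -3049 to -2750 lay over starts of the neighbouring gene Taf8 on the opposite strand. That region is counted in the flank of Ccnd3. Most of the signal lay in the introns. With flanks, Ccnd3 had 14 H2A.Z WT regions of 4625 bp and 8 H2A.Z AP3 regions of 2200 bp, the most H2A.Z AP3 bases of the members. Its span with flanks is also the longest, 114633 bp, and those bases made up 1.92% of it, beside 1.99% at Cdkn1b and 1.71% at Ccnd2. H2A.Z AP3 covered 36.2% of its H2A.Z WT bases there, against 13.9% at Ccnd2 with flanks and 13.2% at Cdkn1b. The longest regions of both coincided at their 5′ end, from +21726, where H2A.Z WT ran for 1575 bp and H2A.Z AP3 for 900 bp.

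The middle 300 bp of those 900 bp are printed, as the longest stretch at the members that both kinds of H2A.Z cover, with CG dinucleotides (6) in capitals. Further intronic regions shared by both lay from +30976, where 300 bp overlapped, and from +40926, where 200 bp did.
Ccnd3, intron, chr17:47664026-47664325, plus strand: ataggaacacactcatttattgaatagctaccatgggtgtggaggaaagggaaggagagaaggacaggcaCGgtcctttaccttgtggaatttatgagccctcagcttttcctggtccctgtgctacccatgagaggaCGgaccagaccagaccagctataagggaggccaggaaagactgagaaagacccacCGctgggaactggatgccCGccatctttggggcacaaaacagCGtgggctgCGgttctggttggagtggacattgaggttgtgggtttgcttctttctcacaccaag

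**Figure D4:**
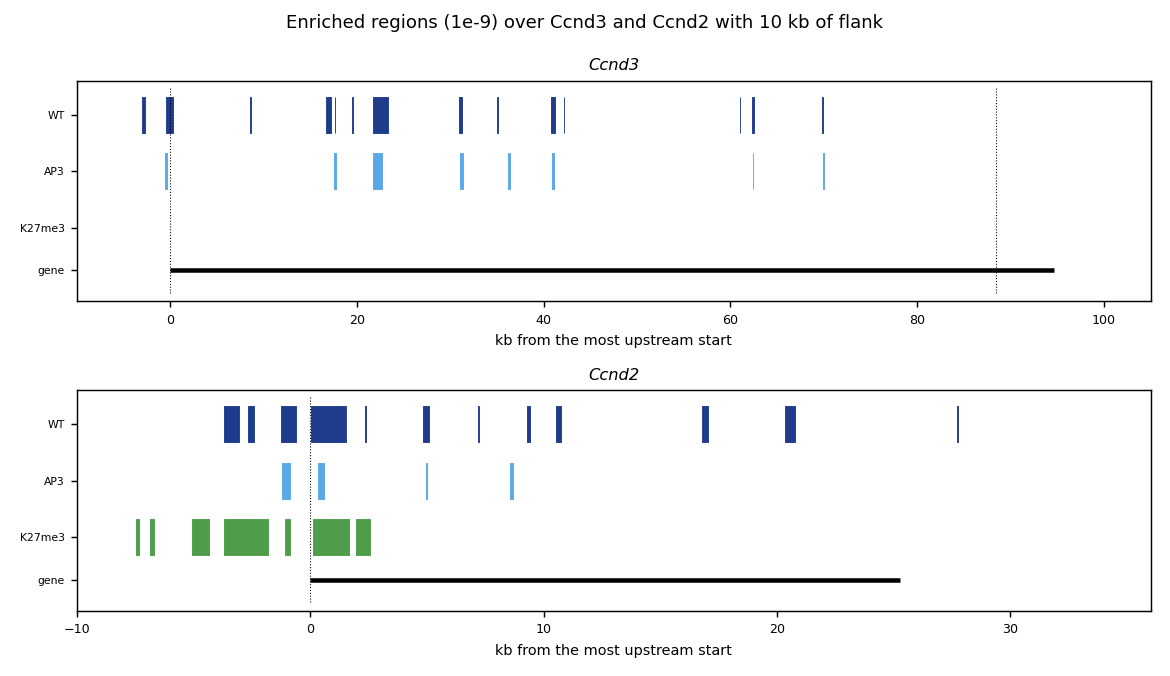
Enriched regions (1e-9 lists) over Ccnd3 (upper panel) and Ccnd2 (lower panel) with 10 kb of flank, by distance in kb from the most upstream start, with the gene body as a black bar, annotated starts as dotted lines and an outline of fixed width that makes the shortest regions look slightly longer. Ccnd3 has H2A.Z WT and H2A.Z AP3 regions in its introns and no H3K27me3. Ccnd2 has regions of all 3 libraries around its start, and further H2A.Z WT and H2A.Z AP3 regions inside the gene.

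Ccne1 (chr7:38883003-38892553, minus strand) encodes cyclin E1, which acts with Cdk2 at the entry into S phase. H2A.Z WT covered 400 bp of its promoter in a single region from -697 to -298, and 275 bp at 1e-12. That region ended 298 bp before the upstream start, and 0 bp were covered downstream of it. H2A.Z AP3 and H3K27me3 covered 0 bp also with flanks, and the nearest H3K27me3 region lay 322063 bp from any of its starts. With 74.5% GC it had the most GC-rich start of the members and an observed over expected CpG ratio of 0.915, with GGGCGG 5 times in the window used above. It is printed as a CpG-rich promoter with an H2A.Z WT region and without regions of the other libraries. Cdkn2d, printed above, also had GGGCGG 5 times but a lower CpG ratio of 0.658.
Ccne1, chr7:38892554-38892703, minus strand: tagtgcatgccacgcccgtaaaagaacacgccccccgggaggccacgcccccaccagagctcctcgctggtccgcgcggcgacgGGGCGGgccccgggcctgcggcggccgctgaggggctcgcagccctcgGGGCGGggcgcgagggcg

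Promoters were searched on both strands, from 250 bp before to 50 bp after the most upstream start, for motifs known from cell cycle genes. GGGCGG was found at 7 of the 10 members, the exceptions being Cdkn1a, Cdkn2c and Ccnd2, and at 43.5% of all promoters. CCAAT was found at Cdkn1b (3 times) and Cdkn2d (1 time), and at 37.9% of all promoters. The TATA motif TATAAA (13.4% of all promoters), the E-box CACGTG (7.79%) and the E2F motifs TTTCGCGC (0.362%) and TTTGGCGC (0.68%) were at none of these member starts. Only these exact letters were searched, so other forms of the motifs were not counted. Both E2F sequences are rare over all promoters, so their absence at 10 starts carries little weight. Among the CpG ratios of the most upstream starts, Cdkn2a, Ccne1 and Cdkn1b were highest with 0.981, 0.915 and 0.905, and Cdkn1a was lowest with 0.126. The members with regions of all 3 libraries were spread over this range, with 0.981 at Cdkn2a, 0.725 at Cdkn2c and 0.523 at Ccnd2.

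In the gene and its 10 kb flanks, H2A.Z WT was found at 8 members (75.1% of all genes), H2A.Z AP3 at 6 (39.3%) and H3K27me3 at 6 (24.9%), and with the 1e-12 lists at 8, 4 and 5 members (72.8%, 32.6% and 21.3% of all genes). The H3K27me3 count rose from the 4 at promoters through Cdkn1b and Cdkn2b. The order of the members by H3K27me3 length in this span was Cdkn2a with 6550 bp, Ccnd2 with 5225 bp, Cdkn2c with 3800 bp, Cdkn2b with 1475 bp, Cdkn1a with 775 bp and Cdkn1b with 100 bp. Ccnd1, Ccnd3, Ccne1 and Cdkn2d had 0 bp. By H2A.Z WT the order was led by Ccnd3 with 4625 bp, Ccnd2 with 4500 bp and Cdkn1b with 3225 bp. As a share of each gene's span that order turned, with 12.8% at Cdkn1b, 9.94% at Ccnd2 and 4.03% at Ccnd3. With 1 library there is no spread against which neighbours in these orders could be separated.

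Over all members, 18 H2A.Z AP3 regions lay in the genes and flanks, and 16 of them met an H2A.Z WT region (88.9%, Wilson 95% interval 67.2 to 96.9%), beside 73% of the whole H2A.Z AP3 list. The exceptions were regions of 150 bp at +8541 in Ccnd2 and of 150 bp at +36201 in Ccnd3, and at the latter the 1e-12 H2A.Z WT list did hold a region. In the reverse direction, 16 of 45 H2A.Z WT regions (35.6%, 23.2 to 50.2%) overlapped H2A.Z AP3, beside 12.9% of the whole list. Without the genes on chromosome 6 these were 10 of 11 (90.9%) and 10 of 28 (35.7%). In promoter bases, 13.2% of the members' H2A.Z WT bases were also H2A.Z AP3 bases, beside 11.5% over all genes, and 7.95% without the genes on chromosome 6. Of the H2A.Z AP3 bases 93.2% were also H2A.Z WT bases, beside 80% over all genes, and 82.4% without those on chromosome 6. These intervals treat regions as independent and cover counting error within the lists alone.

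In promoter bases, the overlap of the members' H2A.Z WT and H3K27me3 lay mainly at Ccnd2, with 1625 of 2200 bp. H3K27me3 covered 28.3% of the members' H2A.Z WT promoter bases, beside 17% over all genes, and 13.1% without Ccnd2 and Cdkn1b. Conversely, 39.2% of the H3K27me3 bases were H2A.Z WT bases, beside 36.1% over all genes, and 15.9% without those genes. Counted as regions, 11 of 45 H2A.Z WT regions (24.4%, 14.2 to 38.7%) overlapped H3K27me3, and 10 of 37 H3K27me3 regions (27%, 15.4 to 43%) overlapped H2A.Z WT, beside 8.08% and 38.2% of the whole lists. Without the genes on chromosome 6 these were 6 of 28 (21.4%) and 6 of 29 (20.7%). Of the 11 H2A.Z WT regions 5 were at Ccnd2, 4 at Cdkn2a and 2 at Cdkn2c. At Cdkn2a the shared part of the H2A.Z WT bases rose from 39.5% at the promoter to 59.4% with flanks, beside 56.7% at Ccnd2 and 33.7% at Cdkn2c with flanks.

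Relative to the most upstream start, 59.8% of the members' H2A.Z WT bases within 2 kb lay downstream, beside 65.5% over all genes, and 59.6% without the genes on chromosome 6. For H3K27me3 the share was 69.7% beside 61.9%, and 56.3% without those genes, so its side of the value over all genes turned with Ccnd2, which holds 1635 of the 2642 bp downstream. For H2A.Z AP3 it was 37.6% beside 57.1%, from 625 bp upstream and 377 bp downstream in all, and 15.9% without the genes on chromosome 6, from 275 and 52 bp. At Cdkn2a and Ccnd3 H2A.Z AP3 lay wholly upstream of the start, at Cdkn1b, Cdkn2c and Ccnd1 wholly downstream, and at Ccnd2 on both sides with 350 and 225 bp. The H2A.Z AP3 share thus rests on 6 genes with short regions.

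Of 29 other genes of the G1 pathway, listed by role, 24 had an H2A.Z WT region at the promoter, 5 an H2A.Z AP3 region and 2 an H3K27me3 region, beside 61.7%, 23.2% and 18.2% of all genes. All 8 E2F and DP factors and all 3 pocket proteins had H2A.Z WT. The H3K27me3 genes were Cdkn1c, the imprinted Cip/Kip inhibitor p57, with 2601 bp beside 796 bp of H2A.Z WT, and E2f6, a repressor of E2F sites, with 1150 bp beside 750 bp. H2A.Z AP3 lay at Rbl2 (425 bp), E2f1 (175 bp), Cdk2 (150 bp), E2f3 (50 bp) and E2f6 (25 bp). Rbl2 lies on chromosome 8, where the H2A.Z AP3 list is dense. H3K27me3 was at the promoters of 0 of the 6 kinases and activators (Cdk2, Cdk4, Cdk6, Cdk7, Ccnh and Cdc25a). It was also at 0 of 3 pocket proteins and 0 of 7 genes of degradation and upstream control. For E2F and DP factors it was 1 of 8, and for the listed cyclins and inhibitors 1 of 5, beside 18.2% of all genes.

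The genes most like a member were found by the distance over 6 lengths, the bp covered within 2 kb before and after the most upstream start in the 3 libraries. Dlx3 (328 bp) and Ptger4 (379 bp) were nearest to Ccnd2, Nmu (162 bp) and Cpm (193 bp) to Cdkn2a, and Cap2 (47.7 bp) and Tmem158 (145 bp) to Cdkn2c. Gstz1 (70 bp) and Atg9a (89.9 bp) were nearest to Cdkn1b, and Tcp11l1 (52 bp) and Sgtb (61.7 bp) to Ccnd3. The distances were thus largest for Ccnd2, which also had the longest covered stretches. Cdkn1a and Cdkn2d, with 0 in all 6 lengths at the most upstream start, shared that pattern with 8682 other genes, Cdkn2b matched 93 genes exactly and Ccne1 36, so no nearest gene is named for these, nor for Ccnd1, where 4 genes lay within the distance of the second nearest.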

How the data were processed

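The 3 ChIP-Seq libraries of mouse ESCs (H2A.Z WT, the mutant H2A.Z AP3 and H3K27me3) were grouped by their genotype and antibody labels, 1 library per group. Per the submitters' processing notes and methods, the authors aligned reads to mm9 with Bowtie 0.12.3, extended them, counted them in bins of 25 bp and called enriched bins against a Poisson background and the input at 1e-9. The methods also required a minimum fold of each bin over the input. The deposited lists hold the start and end of each region, called per library, without heights or p-values. The methods describe no 1e-12 list, so it served as the stricter alternative. Reads and input were not analysed here.

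GENCODE vM1, which annotates this assembly, supplied all transcript starts of 22350 protein-coding genes. A gene counted as covered with at least 1 bp of overlap. Positions are 1-based, and sequences were read from the mm9 genome. Named genes were all 10 members, listed G1 genes with H2A.Z AP3 or H3K27me3, neighbours in the flanks with regions, and the 2 nearest genes by covered lengths unless tied. The neighbour Kri1, without regions, was named after its values were seen. The members and lists were chosen with earlier results of these data known. No test was made, as there are no replicates. Alternatives covered the 1e-12 and joined lists, other windows, flanks, starts and overlaps, and the omission of chromosome 6. The overlap procedure was tested on simulated data with 724 genes, of which 0 had a wrong length. NumPy 2.4.6, SciPy 1.17.1 and Matplotlib 3.10.9 were used under Python 3.11.15.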

Additional observations from a re-analysis of the deposited data

Results flagged for a closer look

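Within the members and their 10 kb flanks, 4 H2A.Z WT regions of the 1e-12 list had no overlap with the 1e-9 list, although a stricter threshold on the same bins would be contained in the looser list. They lay at Ccnd1 (175 bp), Ccnd2 (200 bp) and Ccnd3 (200 and 100 bp), none within 2 kb of a start. They were 4 of 42 such regions, and 90.5% of the 42 overlapped the 1e-9 list beside 91.9% of the whole list. In the H2A.Z AP3 library 3 of 14 regions were of this kind (at Cdkn1b, Cdkn2a and Ccnd3), beside 2529 of 10821 in the whole list, and in the H3K27me3 library 1 of 33 (at Ccnd2), beside 455 of 14058. How the lists were made at each threshold was not tested. The value was singled out because it belongs to a list outside the main comparison, and there is no control library to set it against.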

How the results depend on the processing

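Of 41 alternative values for the counts of members and the shared bases, 36 stayed close to the main value (a count within 1.5 times, a share within the 95% Wilson interval of the main share) and 5 moved. For shares of bases that interval takes every base as independent, although the bases lie in a few regions. It is too narrow there, so a share of bases labelled as moved may have changed little. With the 1e-12 list, H2A.Z AP3 was at 1 member promoter in place of 6. The share of H2A.Z WT promoter bases also covered by H2A.Z AP3, 13.2%, was 5.62% with the 1e-12 lists, 11.7% with a window of 1 kb, 11.7% with 5 kb and 7.95% without the members on chromosome 6. Several counts labelled as close lie exactly at the limit of 1.5 times. For example, H2A.Z AP3 was at 4 member promoters in place of 6 when at least 100 bp had to be covered, a rule without a share over all genes here. Counts without chromosome 6 are out of 8 members, yet were compared with counts out of 10. The 1e-12 list left 12 of 30 gene by library lengths equal and lowered 18, joining both lists changed 0, and coding transcripts alone lowered 2, both at Ccnd1. Of 7 shares recomputed without chromosome 6 by a choice made after seeing the data, 2 moved, the downstream share of H2A.Z AP3 from 37.6% to 15.9% and that of H3K27me3 from 69.7% to 56.3%. A window of 5 kb gave H3K27me3 at 6 members (19.8% of all genes), the most upstream start alone at 3 (16.9%). No paired analysis was possible because each group is 1 library, and no replicate could be left out. Depth is unknown, and since a deeper library passes a fixed threshold at more places, lengths and counts mix depth with enrichment, and differences between the libraries cannot be told apart from it.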
